A study of Mus musculus with 12 samples.

Results

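The genes described here are 10 genes of the lipid droplet and of lipolysis, read in sciatic nerve RNA. They are the perilipins *Plin1*, *Plin2* and *Plin4*, the droplet protein *Cidec*, the lipases *Pnpla2*, *Lipe* and *Mgll*, the lipase co-activator *Abhd5*, and the fatty acid carriers *Fabp4* and *Cd36*. They were taken by symbol from the 43432 genes of the count table, all 10 were found, and all 10 were among the 17257 genes with enough counts to be tested. RNA was sequenced from nerves of 12 mice aged 1 month, 1 library per mouse, in 3 groups of 4, each with 3 males and 1 female. WT control mice were *Mtmr2* wt/wt and untreated. *Mtmr2* KO mice were *Mtmr2* -/- in all their cells, a model of the neuropathy CMT4B1, and are given no treatment in the labels. The niacin-treated group was also *Mtmr2* -/- and was injected intraperitoneally with niacin (120 mg/kg) between day 10 and day 21, followed by gavage of slow-release niacin up to day 30. No WT mice were given niacin, so each difference between niacin-treated *Mtmr2* KO and WT holds both the genotype and the treatment. Libraries are named by the numbers of their labels, 4497 to 4500 for WT, 4501 to 4504 for *Mtmr2* KO and 4505 to 4508 for niacin-treated *Mtmr2* KO.

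Cells store fatty acids as triglyceride in lipid droplets, whose surface is coated by perilipins. Triglyceride is broken down stepwise, by the triglyceride lipase ATGL (*Pnpla2*) with its co-activator CGI-58 (*Abhd5*), by hormone-sensitive lipase (*Lipe*) and by monoglyceride lipase (*Mgll*), and perilipin 1 (*Plin1*) holds CGI-58 at the droplet until protein kinase A releases it. In a peripheral nerve most of this storage lies in the adipocytes of the epineurium, while *Mgll*, *Fabp4* and *Cd36* are also used outside adipocytes, the latter pair by endothelial cells.

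As compared with WT, *Plin1* was lower in *Mtmr2* KO nerves, and it was the single gene of the 10 called at an adjusted p under 0.05, against 0.267% of all tested genes called in either direction and 0.220% called as lower. *Lipe* and *Abhd5* were below WT in every *Mtmr2* KO library as well, as 5.46% of all tested genes were, but missed the threshold. Under niacin, *Plin1* and *Plin2* had higher means than in untreated *Mtmr2* KO nerves and *Plin4* had a lower one, and none of the 10 was called, against 1.43% of all tested genes. Niacin-treated *Mtmr2* KO and WT nerves gave no call among the 10, nor among all tested genes (0.00%), although 5 of the 10 were lower in every treated library, against 16.6% of all tested genes.

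Between 20763951 and 33191106 counts per library were assigned to genes. Myelinating Schwann cell markers were high throughout, as a sciatic nerve should show, with summed levels of 62745 CPM (counts scaled to library size with TMM factors) or more. *Mtmr2* itself was at 128 to 161 CPM in WT, 69.5 to 84.7 CPM in 3 of the *Mtmr2* KO libraries and 66.8 to 73.5 CPM under niacin. The library labelled *Mtmr2* KO 4503 stood at 143 CPM, inside the WT range and against its label, so many of the results that rest on it are also given without it. Skeletal muscle markers summed to 3604 CPM in niacin-treated library 4506 and 3317 CPM in 4507, as compared with 103 CPM or less in the other 10 libraries. Genes rich in G and C bases were read low relative to AT-rich genes in *Mtmr2* KO library 4502 (a log2 shift of -0.64 between the highest and the lowest 20% of genes by GC content) and in the 4 niacin-treated libraries (-0.39 to -0.10), and high in the other 7 libraries (0.15 to 0.32). Of the 10 genes, *Plin1*, *Pnpla2*, *Cidec*, *Plin4*, *Lipe* and *Mgll* have longest transcripts of 55.3% to 57.0% GC, and *Cd36* has 38.4%.

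Promoter sequences are shown for the 3 genes whose *Mtmr2* KO libraries all lay below WT, of which only *Plin1* was called. Shared regulation of these genes was not tested. The sequences are gene-strand bases from the 250 bases upstream of the RefSeq transcription start of GRCm38.p6. Each is the longest stretch that GENCODE M21 places in no exon. The bases nearest the start were thus left out for *Plin1* (127 bases) and *Abhd5* (8 bases). Capitals mark matches on either strand to TTGCNNAA (a C/EBP site, in the family of adipogenic factors) or AGGTCA (a nuclear receptor half-site, here read as TGACCT).
*Plin1*, chr7:79732904-79733026, minus strand: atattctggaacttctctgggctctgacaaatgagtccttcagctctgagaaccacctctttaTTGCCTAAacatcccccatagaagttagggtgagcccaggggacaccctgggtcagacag
*Lipe*, chr7:25390113-25390351, minus strand: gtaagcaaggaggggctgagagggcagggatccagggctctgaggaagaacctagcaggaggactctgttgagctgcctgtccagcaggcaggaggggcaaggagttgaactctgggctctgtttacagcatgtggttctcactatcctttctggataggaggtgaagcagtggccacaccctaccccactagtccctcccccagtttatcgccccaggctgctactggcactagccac
*Abhd5*, chr9:122351366-122351607, plus strand: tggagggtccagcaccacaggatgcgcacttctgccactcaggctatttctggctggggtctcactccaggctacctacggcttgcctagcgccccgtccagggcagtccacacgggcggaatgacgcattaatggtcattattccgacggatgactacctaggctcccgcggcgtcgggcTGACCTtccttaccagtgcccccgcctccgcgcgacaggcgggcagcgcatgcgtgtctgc

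In the full 250 bases before the start, *Plin1* held 2 matches to TTGCNNAA, 187 to 180 and 58 to 51 bases before the start, the second of them in an exon of another transcript. This motif was in 9.56% of 32851 mouse promoter windows of that length, and among the 9 genes with a RefSeq window it was found in *Plin1* and *Cidec*. The full nuclear receptor element, 2 of the half-sites in a row with a base between them, was also searched. It was in 11 of the 32851 windows and in none of those of the 9 genes. AGGTCA was in 14.0% of all windows and in those of *Plin2*, *Abhd5* and *Cd36*. A second *Lipe* start further upstream held CACGTG (an E-box, in 6.02% of all windows), as did *Mgll*. The remaining motifs searched were CCAAT, found in *Plin2*, *Plin4* and *Cd36* and in 33.9% of all windows, and TATAAA, found in none of these genes and in 12.4% of all windows.

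*Plin1* (ENSMUSG00000030546, chr7:79720218-79732903 of GRCm38, minus strand) encodes perilipin 1, the coat protein that gates access of lipases to the droplet. In WT libraries 4497 to 4500 it was at 229, 242, 157 and 167 CPM. In *Mtmr2* KO libraries 4501 to 4504 it was at 85.3, 49.0, 62.1 and 26.0 CPM. In niacin-treated libraries 4505 to 4508 it was at 69.1, 148, 138 and 142 CPM. All *Mtmr2* KO libraries lay below all WT libraries, 3 of the 4 niacin-treated libraries lay above all *Mtmr2* KO libraries, and all niacin-treated libraries lay below WT. Means were 199 ± 43.1 CPM in WT, 55.6 ± 24.8 CPM in *Mtmr2* KO and 124 ± 37.1 CPM under niacin (SD, n = 4). *Plin1* was thus 3.58-fold lower in *Mtmr2* KO than in WT, or -1.84 on the log2 scale (SE 0.32, edgeR adjusted p = 0.0448, quasi-likelihood test, Benjamini-Hochberg adjustment). Against untreated *Mtmr2* KO, niacin gave a difference of 1.16 in log2 (SE 0.32, adjusted p = 0.0818 by the same edgeR test), and against WT one of -0.68 (SE 0.31, adjusted p = 0.202 by edgeR).

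The call for *Plin1* in *Mtmr2* KO lay close to the threshold. It was lost without any single WT library (edgeR adjusted p = 0.132, 0.116, 0.121 and 0.101 without 4497, 4498, 4499 and 4500), without the library labelled *Mtmr2* KO 4503 (0.0834), and without niacin-treated library 4506, 4507 or 4508 (0.0550, 0.0663 and 0.0581), which enter through the shared estimate of spread. The log2 fold change stayed between -2.13 and -1.61 over these fits and the 4 that kept the call, and over all alternatives the adjusted p ran from 4.2e-06 (DESeq2) to 0.132.

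*Plin2* encodes the perilipin found on droplets of most cell types. It was at 90.5, 93.2, 81.1 and 90.7 CPM in WT, at 67.6, 109, 50.8 and 55.2 CPM in *Mtmr2* KO and at 92.8, 88.4, 117 and 158 CPM under niacin. *Mtmr2* KO library 4502 held the highest value of its group, above WT, and the other 3 lay below WT, so the groups overlapped. The log2 fold change of *Mtmr2* KO against WT was -0.33 (SE 0.23, edgeR adjusted p = 0.477), that of niacin against *Mtmr2* KO 0.69 (SE 0.23, edgeR adjusted p = 0.13) and that of niacin against WT 0.36 (SE 0.23, edgeR adjusted p = 0.332).

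*Plin4* (ENSMUSG00000002831, chr17:56100591-56109803, minus strand) encodes a perilipin that coats nascent droplets in adipocytes and muscle. It was at 255, 322, 241 and 293 CPM in WT. It was at 238, 227, 1183 and 41.0 CPM in *Mtmr2* KO and at 57.7, 174, 176 and 169 CPM under niacin. The library labelled *Mtmr2* KO 4503 thus held 28.8 times the level of library 4504 of the same group, and the other 3 *Mtmr2* KO libraries lay below all WT libraries. The log2 fold change of *Mtmr2* KO against WT was 0.60 with all libraries (SE 0.67, edgeR adjusted p = 0.672) and -0.72 without 4503 (edgeR adjusted p = 0.437). Niacin against *Mtmr2* KO gave -1.55 (SE 0.68, edgeR adjusted p = 0.227), and -0.23 without 4503 (0.881). All niacin-treated libraries lay below WT, by a log2 difference of -0.95 (SE 0.68, edgeR adjusted p = 0.377). The exons of *Plin4* overlap those of *Hdgfl2* on the opposite strand, which had 20237 counts over the 12 libraries. The sources used here do not say whether strand was used in counting.

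*Cidec* encodes a protein that fuses droplets in white adipocytes. It was at 321, 326, 260 and 295 CPM in WT, at 184, 343, 293 and 63.0 CPM in *Mtmr2* KO and at 175, 253, 286 and 285 CPM under niacin. *Mtmr2* KO libraries lay on both sides of the WT range, with 4502 above it and 4504 far below. None of the 3 differences was beyond the spread, with log2 fold changes of -0.44 for *Mtmr2* KO against WT, 0.18 for niacin against *Mtmr2* KO and -0.27 for niacin against WT (SE 0.36 each, edgeR adjusted p = 0.550, 0.817 and 0.662). Without *Mtmr2* KO library 4504 the difference of niacin from *Mtmr2* KO was -0.13.

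**Figure D1:**
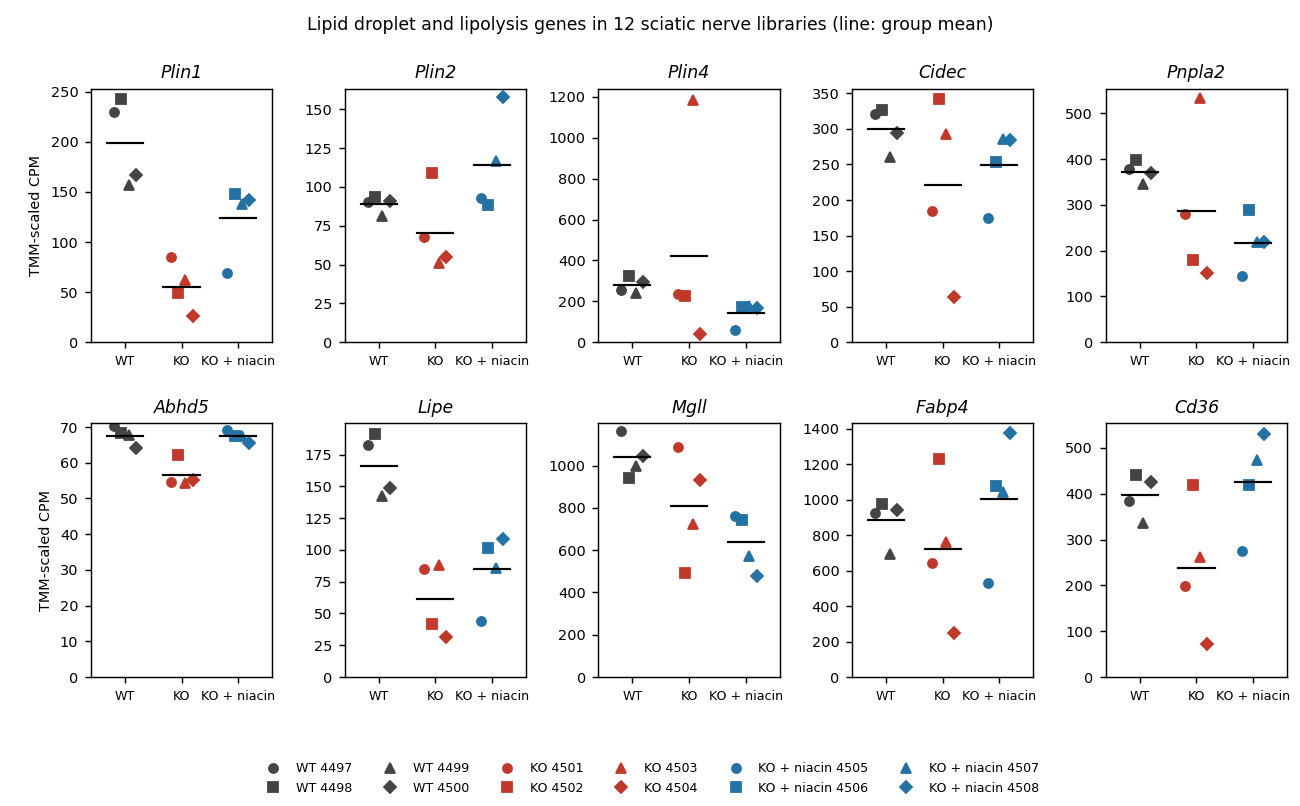
TMM-scaled CPM (vertical axis, from 0, a scale for each gene) of the 10 genes in 4 WT, 4 *Mtmr2* KO and 4 niacin-treated *Mtmr2* KO libraries. Each symbol is 1 library and each line a group mean; *Plin1* and *Lipe* lay below WT in every *Mtmr2* KO library, and the triangle at 1183 CPM in the panel of *Plin4* is the library labelled *Mtmr2* KO 4503.

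Among the lipases, *Pnpla2*, which encodes ATGL and takes the first fatty acid from triglyceride, was at 378, 397, 345 and 369 CPM in WT. It was at 281, 179, 535 and 150 CPM in *Mtmr2* KO and at 145, 288, 219 and 220 CPM under niacin. As for *Plin4*, the library labelled *Mtmr2* KO 4503 held the highest value of all 12 libraries, and the other 3 of its group and all 4 niacin-treated libraries lay below WT. The log2 fold change was -0.38 for *Mtmr2* KO against WT (SE 0.33, edgeR adjusted p = 0.570), and -0.87 without 4503 (0.128). Niacin against *Mtmr2* KO gave -0.39 (SE 0.33, edgeR adjusted p = 0.525), which became 0.098 without 4503, and niacin against WT gave -0.77 (SE 0.33, edgeR adjusted p = 0.177).

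*Abhd5* (ENSMUSG00000032540, chr9:122351608-122381524, plus strand), the co-activator of ATGL, was the steadiest of the 10. It was at 70.2, 68.3, 67.7 and 64.0 CPM in WT, at 54.7, 62.1, 54.3 and 55.2 CPM in *Mtmr2* KO and at 69.2, 67.4, 67.4 and 65.6 CPM under niacin. Every *Mtmr2* KO library lay below every WT and every niacin-treated library, while the latter groups overlapped. The SD of its log2 level was lower than in all but 7.12%, 2.20% and 0.493% of tested genes in the 3 groups. Differences were small, with log2 fold changes of -0.26 for *Mtmr2* KO against WT (SE 0.095, edgeR adjusted p = 0.196), 0.25 for niacin against *Mtmr2* KO (SE 0.095, edgeR adjusted p = 0.167) and -0.0035 for niacin against WT (SE 0.095, edgeR adjusted p = 0.985).

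*Lipe* (ENSMUSG00000003123, chr7:25379527-25398710, minus strand) encodes hormone-sensitive lipase, which acts mainly on diglyceride. It was at 182, 192, 143 and 149 CPM in WT, at 84.9, 41.7, 87.8 and 31.8 CPM in *Mtmr2* KO and at 44.4, 102, 86.1 and 108 CPM under niacin. Both *Mtmr2* KO groups lay below WT in all 4 libraries, and they overlapped each other. *Lipe* was 2.70-fold lower in *Mtmr2* KO than in WT, or -1.43 on the log2 scale (SE 0.33, edgeR adjusted p = 0.0711), and -1.66 without 4503 (0.0834). It was called without *Mtmr2* KO library 4501 (-1.63, edgeR adjusted p = 0.0418), and over all alternatives the adjusted p ran from 0.0011 to 0.183. Niacin against *Mtmr2* KO gave 0.47 (SE 0.32, edgeR adjusted p = 0.437), and niacin against WT gave -0.97 (SE 0.32, edgeR adjusted p = 0.123).

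*Mgll* encodes the lipase of the last step, which also ends signalling by the endocannabinoid 2-arachidonoylglycerol and is found in many cell types. It was at 1165, 943, 1000.4 and 1048 CPM in WT, at 1088.5, 494, 723 and 932 CPM in *Mtmr2* KO and at 763, 745, 573 and 479 CPM under niacin. *Mtmr2* KO libraries overlapped WT, and the niacin-treated libraries lay below WT. The log2 fold change of *Mtmr2* KO against WT was -0.36 (SE 0.23, edgeR adjusted p = 0.436), that of niacin against *Mtmr2* KO -0.34 (SE 0.23, edgeR adjusted p = 0.431) and that of niacin against WT -0.70 (SE 0.23, edgeR adjusted p = 0.120).

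*Fabp4* encodes the cytosolic fatty acid carrier of adipocytes. It was at 925, 974, 696 and 942 CPM in WT, at 645, 1230, 762 and 251 CPM in *Mtmr2* KO and at 532, 1076, 1041 and 1373 CPM under niacin. *Cd36*, the membrane transporter of fatty acids, was at 384, 440.0, 336 and 427 CPM in WT, at 200, 419, 262 and 71.1 CPM in *Mtmr2* KO and at 275, 419, 474 and 530 CPM under niacin. In both genes *Mtmr2* KO library 4504 was the lowest of the 12 libraries, niacin-treated library 4508 was the highest, and the groups overlapped. For *Fabp4* the log2 fold changes were -0.29 for *Mtmr2* KO against WT, 0.48 for niacin against *Mtmr2* KO and 0.19 for niacin against WT (SE 0.38 each, edgeR adjusted p = 0.719, 0.501 and 0.779). For *Cd36* they were -0.74, 0.84 and 0.098 in the same order (SE 0.38 each, edgeR adjusted p = 0.333, 0.237 and 0.886).

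Over the 10 genes, 9 had a lower mean in *Mtmr2* KO than in WT, *Plin4* being the other, as compared with 46.0% of all tested genes. In 3 of them, *Plin1*, *Lipe* and *Abhd5*, the groups did not overlap, against 5.46% of all tested genes that were lower without overlap. Their median log2 fold change was -0.37, and that of all tested genes 0.033. Without the library labelled *Mtmr2* KO 4503 no gene of the 10 was called and 6 genes were called in all, as compared with 46 genes with it. All 10 means were then lower than in WT, with log2 fold changes of -0.21 for *Plin2*, -0.24 for *Abhd5*, -0.31 for *Mgll*, -0.32 for *Fabp4*, -0.61 for *Cidec* and -0.79 for *Cd36*. In these whole-nerve samples, fewer cells of a type and less RNA per cell cannot be told apart.

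For niacin against untreated *Mtmr2* KO, 7 of the 10 genes had a higher mean (*Plin4*, *Pnpla2* and *Mgll* being lower), and 54.1% of all tested genes had a lower mean. *Abhd5* was higher in every treated library, against 3.60% of all tested genes that were higher without overlap. At an unadjusted edgeR p under 0.05 stood 5 of the 10 genes, against 20.1% of all. Their median log2 fold change was 0.36, and that of all tested genes -0.035. Without *Mtmr2* KO library 4502, which had the largest GC shift, 4 were called as higher under niacin: *Plin1* (1.09), *Plin2* (0.96), *Abhd5* (0.28) and *Cd36* (1.24), with edgeR adjusted p = 0.0375, 0.0062, 0.0292 and 0.0221. In that fit 4180 genes were called in all, in either direction, as compared with 246 with 4502. Calls were thus common among all genes there and do not set these 4 apart. Leaving out 4503 in place of 4502 gave no call among the 10, with *Plin1* at 1.22, *Plin2* at 0.56 and *Abhd5* at 0.23. Without both niacin-treated libraries with high muscle markers, 4506 and 4507, *Plin1* stood at 0.91 (edgeR adjusted p = 0.376, within a range of 0.0083 to 0.376 over all alternatives).

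For niacin-treated *Mtmr2* KO against WT, 7 of the 10 genes had a lower mean, as compared with 48.5% of all tested genes. *Plin1*, *Plin4*, *Pnpla2*, *Lipe* and *Mgll* were lower in every treated library, and 16.6% of all tested genes were lower without overlap. The median log2 fold change was -0.47, and that of all tested genes 0.019. No gene of the table was called by edgeR, while 24.7% had an unadjusted p under 0.05, among them 4 of the 10. In a fit of only these 8 libraries, which leaves out the widely spread *Mtmr2* KO group, the same 5 genes were called as lower. Their edgeR adjusted p was 0.0061 for *Mgll*, 0.0068 for *Pnpla2*, 0.0096 for *Lipe*, 0.0247 for *Plin4* and 0.0401 for *Plin1*. In that fit 5586 genes were called in all, in either direction, so calls were common among all genes and do not set these 5 apart. These 5 genes have GC-rich transcripts (55.3% to 57.0%). GC-rich genes were read low in all 4 niacin-treated libraries (-0.39 to -0.10) and high in all 4 WT libraries (0.17 to 0.32). The part of this GC shift in the fit of 8 libraries was not tested. Without *Mtmr2* KO library 4502 alone, *Lipe* (-0.99) and *Mgll* (-0.71) were called (edgeR adjusted p = 0.0340 and 0.0162). Calls over all genes moved widely as well. Over the 12 fits that each left out 1 library, they ran from 0 to 3826 genes, and from 0 to 2 of the 10. The *Mtmr2* KO libraries enter both the first and the second comparison and the WT libraries both the first and the third, so the 3 sets of fold changes are not independent.

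**Figure D2:**
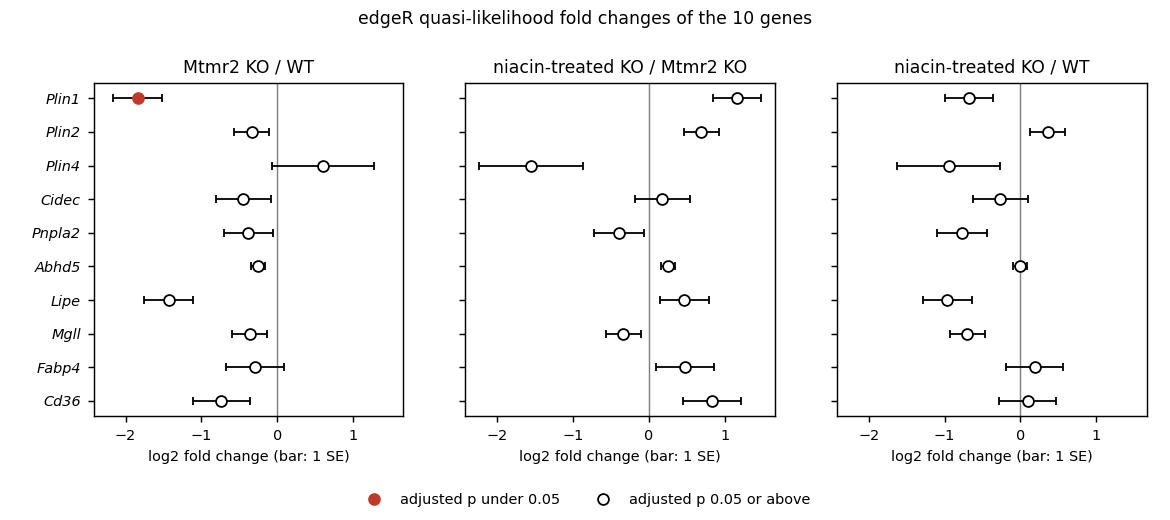
Log2 fold change (horizontal axis) of each of the 10 genes in the 3 comparisons by edgeR's quasi-likelihood test on 12 libraries, with bars of 1 SE on either side. *Plin1* in *Mtmr2* KO against WT, at -1.84, is the filled point, called at an adjusted p under 0.05; the widest bars are those of *Plin4*.

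Correction of every library for transcript GC and length, added after the data were seen, changed some of these calls. In *Mtmr2* KO against WT, *Plin1* (-1.70, edgeR adjusted p = 0.0319) and *Lipe* (-1.33, edgeR adjusted p = 0.0403) were called. In niacin against *Mtmr2* KO, *Plin1* was called (1.29, edgeR adjusted p = 0.0318). In niacin against WT the differences of *Plin1* and *Mgll* shrank to -0.41 and -0.42, that of *Cd36* turned to -0.17, and none of the 10 was called. The niacin-treated and WT libraries then overlapped for *Plin1* and *Mgll*, while *Plin4*, *Pnpla2* and *Lipe* stayed below WT in every treated library.

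To compare the genes with each other free of library scaling, the difference in log2 CPM between paired genes was taken within each library. *Fabp4* exceeded *Cd36* by 1.27, 1.15, 1.05 and 1.14 on the log2 scale in WT libraries, by 1.69, 1.55, 1.54 and 1.82 in *Mtmr2* KO and by 0.95, 1.36, 1.13 and 1.37 under niacin. The *Mtmr2* KO libraries, 4503 among them, lay above all others, and the WT and niacin-treated libraries overlapped. The shift was 0.50 ± 0.079 (SE) for *Mtmr2* KO against WT and -0.45 ± 0.12 for niacin against *Mtmr2* KO. Each had a two-sided exact permutation p of 0.0286, the smallest that 70 arrangements of 8 libraries give, and 0.0536 after Benjamini-Hochberg adjustment over 15 tests. After the GC and length correction the shift was 0.57 for *Mtmr2* KO against WT, still without overlap, and -0.39 for niacin against *Mtmr2* KO, where the groups then overlapped (exact permutation p = 0.0571).

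*Lipe* relative to *Pnpla2* stood at -1.05, -1.05, -1.27 and -1.31 in WT libraries, at -1.73, -2.10, -2.60 and -2.24 in *Mtmr2* KO and at -1.70, -1.5, -1.34 and -1.02 under niacin. Every *Mtmr2* KO library lay below every library of both other groups, by a narrow margin for 4501 and 4505. The shift was -1.0 ± 0.19 (SE) for *Mtmr2* KO against WT and 0.78 ± 0.23 for niacin against *Mtmr2* KO (exact permutation p = 0.0286 each, 0.0536 adjusted). *Lipe* against *Mgll* was also lower in *Mtmr2* KO than in WT (-1.14 ± 0.40), and *Plin1* against *Plin2* was lower in *Mtmr2* KO (-1.54 ± 0.43) and under niacin (-1.04 ± 0.28) than in WT, with the same exact permutation p and adjusted p. *Pnpla2* against *Abhd5* was lower under niacin than in WT (-0.81 ± 0.22, exact permutation p = 0.0286, 0.0536 adjusted). After the GC and length correction the difference of *Pnpla2* against *Abhd5* shrank to -0.46, without overlap. That of *Plin1* against *Plin2* was then -1.37 in *Mtmr2* KO, without overlap, and -0.72 under niacin, where the groups overlapped (exact permutation p = 0.0571), and those of *Lipe* against *Pnpla2* and *Mgll* moved by less than their SE. Of the 15 tests on uncorrected levels, 8 reached the smallest possible p and none passed 0.05 after adjustment, which a family with 8 such tests cannot do in this design.

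**Figure D3:**
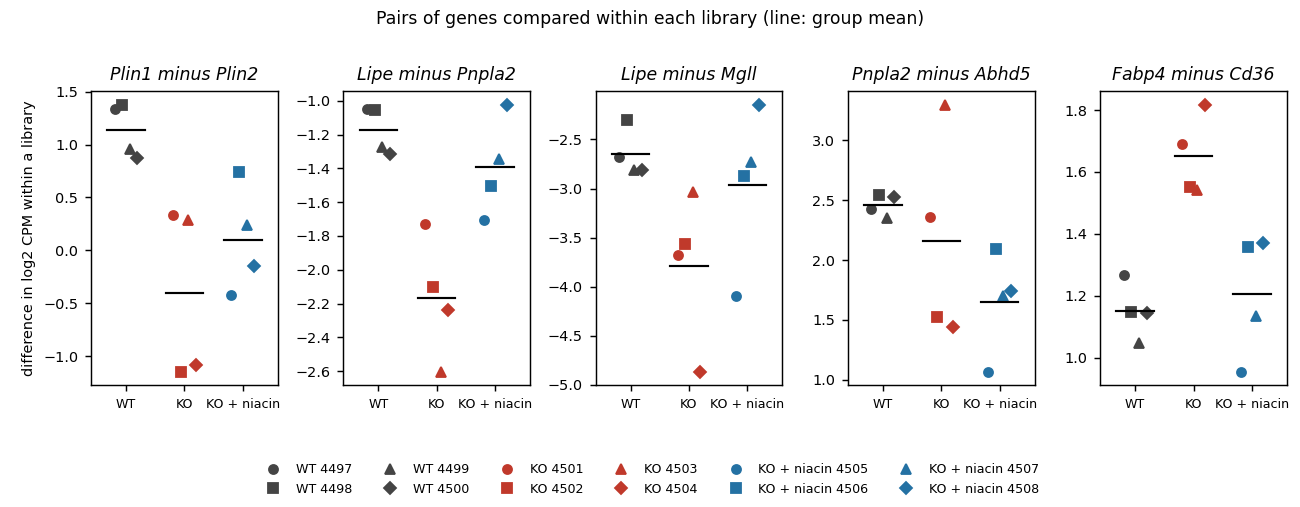
Difference in log2 CPM between 5 pairs of genes within each library (vertical axis, a scale for each pair), in WT, *Mtmr2* KO and niacin-treated *Mtmr2* KO nerves. Symbols are libraries and lines group means; the *Mtmr2* KO libraries stand apart from both other groups for *Lipe* minus *Pnpla2* and for *Fabp4* minus *Cd36*.

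Divided by exon length, levels in WT nerves ran from 205 CPM per kb for *Mgll*, 197 for *Fabp4* and 162 for *Cidec*, whose ranges overlapped from each to the next, through 123 for *Pnpla2* and 111 for *Cd36*, which overlapped each other. Below these came *Plin4* at 48.1 and *Plin1* at 42.8 CPM per kb, *Lipe* at 28.3 and *Plin2* at 25.3, and last *Abhd5* at 11.3. WT ranges did not overlap between *Cidec* and *Pnpla2*, *Cd36* and *Plin4*, *Plin1* and *Lipe*, or *Plin2* and *Abhd5*. In *Mtmr2* KO every neighbour in the order overlapped the next, and *Plin1* (11.96 CPM per kb) stood below *Plin2* (20.1). Under niacin, the single gap was between *Pnpla2* (72.2 CPM per kb) and *Plin2* (32.5), and *Plin1* was at 26.8.

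Within both *Mtmr2* KO groups the median spread of the 10 genes was wider than that of all tested genes, although *Abhd5* was among the steadiest genes. The median SD of their log2 levels was 0.16 in WT, 0.78 in *Mtmr2* KO and 0.41 under niacin, and that of all tested genes was 0.16, 0.40 and 0.22. *Mtmr2* KO library 4504 was the lowest of the 12 libraries for 6 of the 10 genes. The library labelled 4503 was the highest for *Plin4* and *Pnpla2* and the lowest for *Plin2* and *Abhd5*. Niacin-treated library 4508 was the highest for *Plin2*, *Fabp4* and *Cd36* and the lowest for *Mgll*.

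Other genes of the pathway were read from lists. Of 16 regulators of lipolysis, which include adrenergic receptors, adenylyl cyclases, protein kinase A and the niacin receptor *Hcar2*, none was called in any comparison. In *Mtmr2* KO against WT, 15 had a lower mean and 8 were lower without overlap, against 46.0% and 5.46% of all tested genes, with a median of -0.70. The most abundant, *Prkar2b* and *Prkacb*, which encode protein kinase A subunits, stood at -0.29 and -0.048 (edgeR adjusted p = 0.542 and 0.864). Niacin against *Mtmr2* KO gave 11 higher means, none without overlap, with a median of 0.15, and niacin against WT gave 12 lower means, 7 without overlap, against 48.5% and 16.6% of all tested genes, with a median of -0.54.

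Of 12 other lipid hydrolases, none was called in *Mtmr2* KO against WT (8 lower means, median -0.20) or niacin against WT (5 lower means, median 0.14). In niacin against *Mtmr2* KO, 2 rose, as did 0.695% of all tested genes: *Pnpla3*, a close relative of ATGL, at a log2 fold change of 2.18 (edgeR adjusted p = 0.0475), and the carboxylesterase *Ces1f* with 1.83 (0.0425). *Pnpla3* was at 11.4, 16.2, 3.20 and 6.06 CPM in *Mtmr2* KO libraries and 13.8, 54.6, 49.6 and 48.3 CPM under niacin, where 4505 overlapped the untreated group. *Ces1f* was at 7.94, 5.87, 1.38 and 3.08 CPM in *Mtmr2* KO and 11.9, 14.6, 18.2 and 20.4 CPM under niacin, without overlap. Without single libraries, the call of *Pnpla3* held only without 4502 or 4505 and that of *Ces1f* only without 4501 or 4502. Without 4503, which held the lowest value of both genes, they stood at 1.89 (edgeR adjusted p = 0.108) and 1.52 (0.0686), and without 4506 and 4507 together at 1.74 (0.304) and 1.80 (0.276). Lipoprotein lipase *Lpl*, the most abundant of the list, stood at -1.08 in *Mtmr2* KO against WT (edgeR adjusted p = 0.114) and 1.16 in niacin against *Mtmr2* KO (0.0742), and the monoglyceride hydrolase *Abhd12* at 0.17 and -0.59 (0.651 and 0.100).

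Of 16 genes of fatty acid uptake and activation none was called, with 12 lower means in *Mtmr2* KO against WT (median -0.25), 11 higher means in niacin against *Mtmr2* KO (median 0.39) and 9 lower means in niacin against WT (median -0.15). The most abundant were the transporter *Slc27a1* (0.27, -0.91 and -0.64 in the 3 comparisons) and the acyl-CoA synthetase *Acsl1* (-0.80, 0.43 and -0.37). *Slc27a1* was at 781 CPM in the library labelled 4503, as compared with 146 to 452 CPM in the other 11, as *Plin4* and *Pnpla2* were also highest there. Of 13 other droplet proteins, 11 had enough counts to be tested and none was called, with medians of -0.040, 0.16 and -0.031. *Hsd17b11* and the broadly expressed perilipin *Plin3*, the most abundant, stood between -0.12 and 0.22 in all 3 comparisons.

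Markers of other cells moved with these genes in part. White adipocyte markers (10 of 11 found by symbol, led by *Car3* and *Cfd*) summed to 3183 to 4106 CPM in WT, 835 to 6114 CPM in *Mtmr2* KO and 3079 to 6010 CPM under niacin, and none was absent. All 10 had a lower mean in *Mtmr2* KO than in WT, with a median of -0.78, and 2 of them were called (*Lep* and *Aoc3*, chosen after their values were seen), against 0.267% of all tested genes. All 10 had a higher mean under niacin than in *Mtmr2* KO, with a median of 0.89, and *Lep* was called, against 1.43% of all tested genes. The order of libraries differed between the marker sum, to which *Car3* and *Cfd* gave most, and the 10 genes. *Mtmr2* KO library 4502 had the highest marker sum of all, 6114 CPM, with *Plin1* at 49.0 and *Lipe* at 41.7 CPM. The library labelled 4503 had 1027 CPM of markers and the highest *Plin4* and *Pnpla2*. Single markers differed in this. By correlation with the mean of the 10 genes, *Slc7a10* ranked 4 and *Acvr1c* 15 among the other tested genes (Pearson r = 0.96 and 0.93). No other white adipocyte marker ranked as high. The part of adipocyte content in the differences of *Plin1*, *Lipe* and the other genes was not tested. Brown adipocyte markers (*Cox7a1* and *Cox8b* leading) summed to 37.4 to 50.2 CPM in WT, 17.6 to 29.2 CPM in *Mtmr2* KO and 30.2 to 48.7 CPM under niacin, so that every *Mtmr2* KO library lay below all others. Of 7 tested, 6 had a lower mean in *Mtmr2* KO than in WT, and *Zic1* had a higher one (0.79, edgeR adjusted p = 0.418). *Kcnk3*, likewise named after its values were seen, was called as lower (-1.87, edgeR adjusted p = 0.0448), against 0.267% of all tested genes. Under niacin the 7 genes did not move as one. *Ucp1* was at -4.06 in *Mtmr2* KO against WT and at -3.62 in niacin against WT (edgeR adjusted p = 0.103 and 0.101). *Kcnk3* (-1.30) and *Otop1* (-0.81) also had lower means under niacin than in WT. The other 4 means were higher, with *Cox7a1* at 0.62 and *Cox8b* at 0.94. Whether the low levels of this list came from brown adipocytes was not tested, nor was the part of such cells or of muscle.

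Endothelial markers (*Pecam1* and *Cdh5* leading), which bear on *Fabp4* and *Cd36*, summed to 542 to 605 CPM in WT, 232 to 695 CPM in *Mtmr2* KO and 258 to 421 CPM under niacin. Their sum was lower in every niacin-treated library than in every WT library, with 7 of the 8 means lower and *Emcn* at 0.025. In that comparison *Fabp4* and *Cd36* stood at 0.19 and 0.098, and at 0.052 and -0.17 after the GC and length correction. The part of endothelial cells in the levels of *Fabp4* and *Cd36* was not tested. Sums of macrophage markers (*Mrc1* and *Csf1r* leading), perineurial markers (*Itgb4*, *Cldn1*), fibroblast markers (*Dcn*, *Col1a1*) and red blood cell markers (*Hbb-bs*, *Hba-a1*) overlapped between *Mtmr2* KO and WT. Macrophage markers were higher in every niacin-treated library (641 to 971 CPM) than in every WT library (535 to 623 CPM), and their part in that comparison was not tested. Muscle markers (*Myh4*, *Tnnt3*) were high in 4506 and 4507 alone. None of the 10 genes was the highest or the lowest of the 12 libraries there, which is no test of the part of muscle in their levels. That part was not tested.

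**Figure D4:**
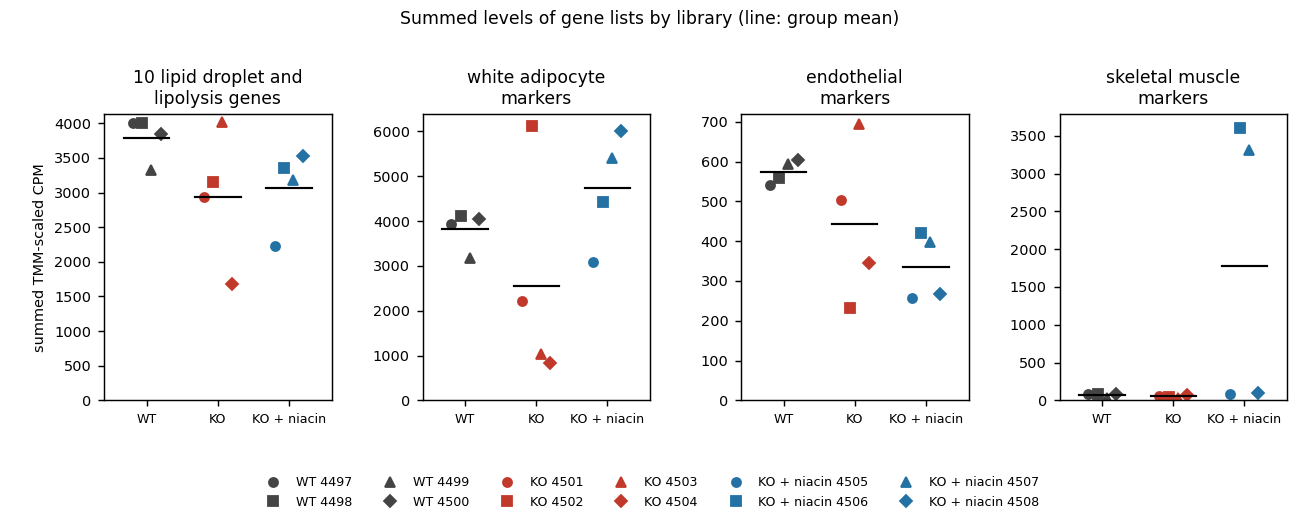
Summed TMM-scaled CPM (vertical axis, from 0) of the 10 genes and of white adipocyte, endothelial and skeletal muscle markers in each of 12 libraries, with group means as lines. Adipocyte markers ran from 835 to 6114 CPM within *Mtmr2* KO, and muscle markers reached 3604 and 3317 CPM in niacin-treated libraries 4506 and 4507.

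The genes whose levels over the 12 libraries most resembled the mean of the 10 (mean of their standardised log2 levels, all 17257 tested genes compared) were *Pde3b* (Pearson r = 0.97, Spearman rho = 0.95), *Plin5* (0.97, 0.97), *Aifm2* (0.96, 0.94), *Slc7a10* (0.96, 0.86) and *A530020G20Rik* (0.96, 0.87). These values describe 12 libraries that share groups, GC shifts and depth, and carry no test.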

How the data were processed

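RNA selected for polyA tails was sequenced from sciatic nerves of 12 mice, and per the labels the authors aligned them with STAR to GRCm38. They deposited raw read counts per Ensembl gene as whole numbers. The sources used here do not name the counting program, its annotation or its strand setting. The deposited DESeq2 tables hold the study's fold changes and p-values, which were not used. Only their other column, the gene symbols deposited beside Ensembl identifiers, was taken from them. The 10 genes and all gene lists were chosen with earlier results of these data known.

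The analysis used edgeR 4.0.16 under R 4.3.3. The filter filterByExpr left 17257 of 43432 genes, TMM factors scaled the libraries, and a single quasi-likelihood model without covariates was fitted to all 12 libraries. Tests were two-sided, p-values were adjusted by Benjamini-Hochberg over all tested genes, and genes were called under 0.05. Totals of 20763951 to 33191106 counts put every one of the 10 genes at 540 counts or more in each library, so that spread between mice, not counting error, limits precision. Log2 levels used a prior count of 2. CPM per kb used exon lengths of GENCODE M21. Each library is 1 mouse and 1 replicate. Pairs of genes were compared within libraries by exact permutation tests over 70 arrangements, with the smallest p of 0.0286.

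Alternatives were DESeq2 1.42.0, limma 3.58.1 voom with sample quality weights, DESeq2 size factors in edgeR, a fit limited to the groups compared, all genes with any count, log2 CPM of *Xist* as a covariate and each library left out in turn. Chosen after seeing the data were a GC and length correction per library (natural splines, 5 degrees of freedom, 17142 genes), leaving out libraries 4506 and 4507 together, each library of the third group left out, and a prior count of 0.5. The edgeR fit was also run on simulated counts with equal spread in all groups and without GC shifts or outlying libraries. That run cannot show how such features affect the calls. Genes named by rule are the 10, *Mtmr2*, the 2 most abundant genes of each list, up to 4 called genes of each pathway list, and the 5 genes most correlated with the mean of the 10. Outside this rule, *Lep*, *Aoc3*, *Acvr1c*, *Kcnk3*, *Zic1*, *Ucp1*, *Otop1* and *Emcn* were named after their values were seen, and *Hcar2* as the niacin receptor. Promoter windows came from RefSeq. Figures were drawn with matplotlib.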

Additional observations from a re-analysis of the deposited data

Results flagged for a closer look

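In 33 groups of 4 libraries (10 genes and *Mtmr2* in 3 groups), 4 held a library that stood apart from the other 3 by Dixon's ratio, the gap to the nearest log2 level over the whole range, which chance passes in about 1 in 20 groups. *Plin4* (ratio 0.967) and *Plin1* (0.912) were lowest in niacin-treated *Mtmr2* KO library 4505, at 57.7 and 69.1 CPM. *Abhd5* was highest in *Mtmr2* KO library 4502, at 62.1 CPM (ratio 0.877). *Fabp4* was lowest in WT library 4499, at 696 CPM (ratio 0.845).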

How the results depend on the processing

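For *Mtmr2* KO against WT, 1 of the 10 genes and 46 genes in all were called. The 10 genes and all genes gave 2 and 683 calls with DESeq2, 3 and 108 with voom, 0 and 0 in a fit of the 2 groups alone, 2 and 341 without the filter on low counts, 0 and 12 with *Xist* as a covariate, and 2 and 203 after the GC and length correction, whose calls were 72 higher and 131 lower as compared with 8 and 38. For niacin against *Mtmr2* KO, 0 and 246 became 2 and 1078 with DESeq2, 5 and 2007 with voom, 0 and 0 with the 2 groups alone, 1 and 573 without the filter, 0 and 50 with *Xist*, 1 and 465 after the GC and length correction, and 0 and 0 without 4506 and 4507. For niacin against WT, 0 and 0 became 2 and 1070 with DESeq2, 4 and 7311 with voom, 5 and 5586 with the 2 groups alone, and 0 and 311 without the filter. DESeq2's size factors in edgeR kept all 3 counts for the 10 genes at their values.

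With each library left out in turn, calls ran from 0 to 2 of the 10 genes and 0 to 457 in all for *Mtmr2* KO against WT, from 0 to 4 and 0 to 4180 for niacin against *Mtmr2* KO, and from 0 to 2 and 0 to 3826 for niacin against WT.

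Log2 fold changes turned sign for *Plin4* with voom (-1.06 for *Mtmr2* KO against WT and 0.23 for niacin against *Mtmr2* KO), for *Abhd5* with the 2 groups alone (0.0026, niacin against WT), for *Cd36* in niacin against WT after the GC and length correction (-0.17) and without 4506 and 4507 (-0.017), and for *Pnpla3* in niacin against WT without 4506 and 4507 (-0.27). Leaving out 1 library, *Plin4* ran from -0.72 to 0.97 in *Mtmr2* KO against WT. In niacin against *Mtmr2* KO, *Cidec* ran from -0.13 to 0.45 and *Pnpla2* from -0.60 to 0.098. In niacin against WT, *Abhd5* ran from -0.031 to 0.014, *Fabp4* from -0.0031 to 0.39 and *Cd36* from -0.028 to 0.25, and the within-library differences ran from -0.59 to 0.066 for *Lipe* minus *Mgll* and from -0.0020 to 0.14 for *Fabp4* minus *Cd36*. The cause was not tested for any of these. Spread among 4 mice per group limits all 3 comparisons, and the *Mtmr2* KO group, with 4502 and 4503, is the widest. No paired analysis was possible because the groups share no replicate number.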
